A study of Solenopsis invicta with 3 samples.

Results

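In the antennae of fire ant (Solenopsis invicta) workers, 72 genes had a higher normalized count in workers heterozygous for the social supergene than in both classes of homozygous workers, while the homozygous classes lay close together. These genes were chosen by their counts in the same 3 libraries that are described here. The count tables listed 19703 genes, and 8125 of them lay in the range of levels from which members could be taken. A gene was a member when its normalized count, averaged over the 3 libraries, was at least 10 and under 1500. In addition, its P_Bb value had to be at least 1.6 times both SB/SB values, and the SB/SB values had to be within 1.3-fold of each other. A pseudocount of 0.5 was added to each value before these ratios were taken. Genes with odorant receptor IDs and 5 genes left out by name were not eligible, and none of those 5 met the other limits.

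Each worker class was represented by 1 library, and all 3 were made from antennae of adult workers attracted to honey in the foraging area. The P_Bb library came from polygyne workers, whose colonies hold several queens, with the genotype SB/Sb. The P_BB library came from polygyne workers with the genotype SB/SB, and the M_BB library from SB/SB workers of monogyne colonies, which hold a single queen. RNA of several colonies was pooled in each library, with the same colonies named for both polygyne pools and other colonies for the monogyne pool. Which of the named colonies contributed RNA was not settled by the sources used here, worker age was not given, and social form and colony cannot be told apart for M_BB. No replicate check was possible, so each value below is a single measurement and no p-value was computed.

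The social supergene of the fire ant is a large non-recombining region of a chromosome that is inherited in the variants SB and Sb. Polygyne colonies hold workers of both genotypes, whereas monogyne colonies hold SB/SB workers. Workers of polygyne colonies accept or reject queens by their genotype, presumably by chemical cues on the queen's body, and antennae carry the sensory neurons that detect such cues. The 3 classes were sampled so that a difference by genotype, P_Bb against both SB/SB classes, could be told from a difference by colony type, M_BB against both polygyne classes.

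The libraries held 1310209, 1800106 and 1453234 expected counts in P_Bb, P_BB and M_BB. Counts above 0 were found for between 13011 and 13507 genes, and for between 431 and 439 of the 473 listed odorant receptor genes, which mark antennal tissue. A normalized count is the expected count divided by the library's size factor, which was 0.841 for P_Bb, 1.12 for P_BB and 1.07 for M_BB. Intervals of 95% for counts, ratios of counts and shares of counts cover counting error only. Those for medians over genes and for shares of genes take the genes as units. They describe the chosen genes and measure no variation between workers or colonies. Because bulk antennae were measured, a lower number of cells of a type and less RNA per cell cannot be told apart. The model SINVm1_gene_02111 of the odorant-binding protein gene SiOBP12 had 19 expected counts in P_Bb and 1 in each SB/SB library. The study ascribed the higher SB/Sb signal at this model to SiOBP12b′, a duplicate copy found only in Sb. The counts used here do not tell the copies apart. The mean normalized count of SINVm1_gene_02111, 8.15, was under the minimum of 10, so it was not a member.

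Members were read from low to moderate counts. Their normalized counts ran from 15.5 to 133 in P_Bb with a median of 28, from 5.38 to 69.3 in P_BB with a median of 13.4, and from 4.69 to 76.1 in M_BB with a median of 14.1. The 72 genes summed to 2580 normalized counts in P_Bb against 1339 in P_BB and 1319 in M_BB. As a share of all expected counts they took 0.166% of P_Bb (Wilson 95% interval 0.159 to 0.173), 0.0830% of P_BB (0.0789 to 0.0873) and 0.0968% of M_BB (0.0919 to 0.102). The median log2 ratio of P_Bb to P_BB was 0.89 (order-statistic 95% interval 0.85 to 0.96) over the members and 0.01 over all genes in range. The median log2 ratio of P_Bb to M_BB was 0.94 (0.89 to 1.0) over the members and 0.04 over all genes in range. Both comparisons used the same P_Bb library, and the limits of the rule fixed their direction.

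**Figure D1:**
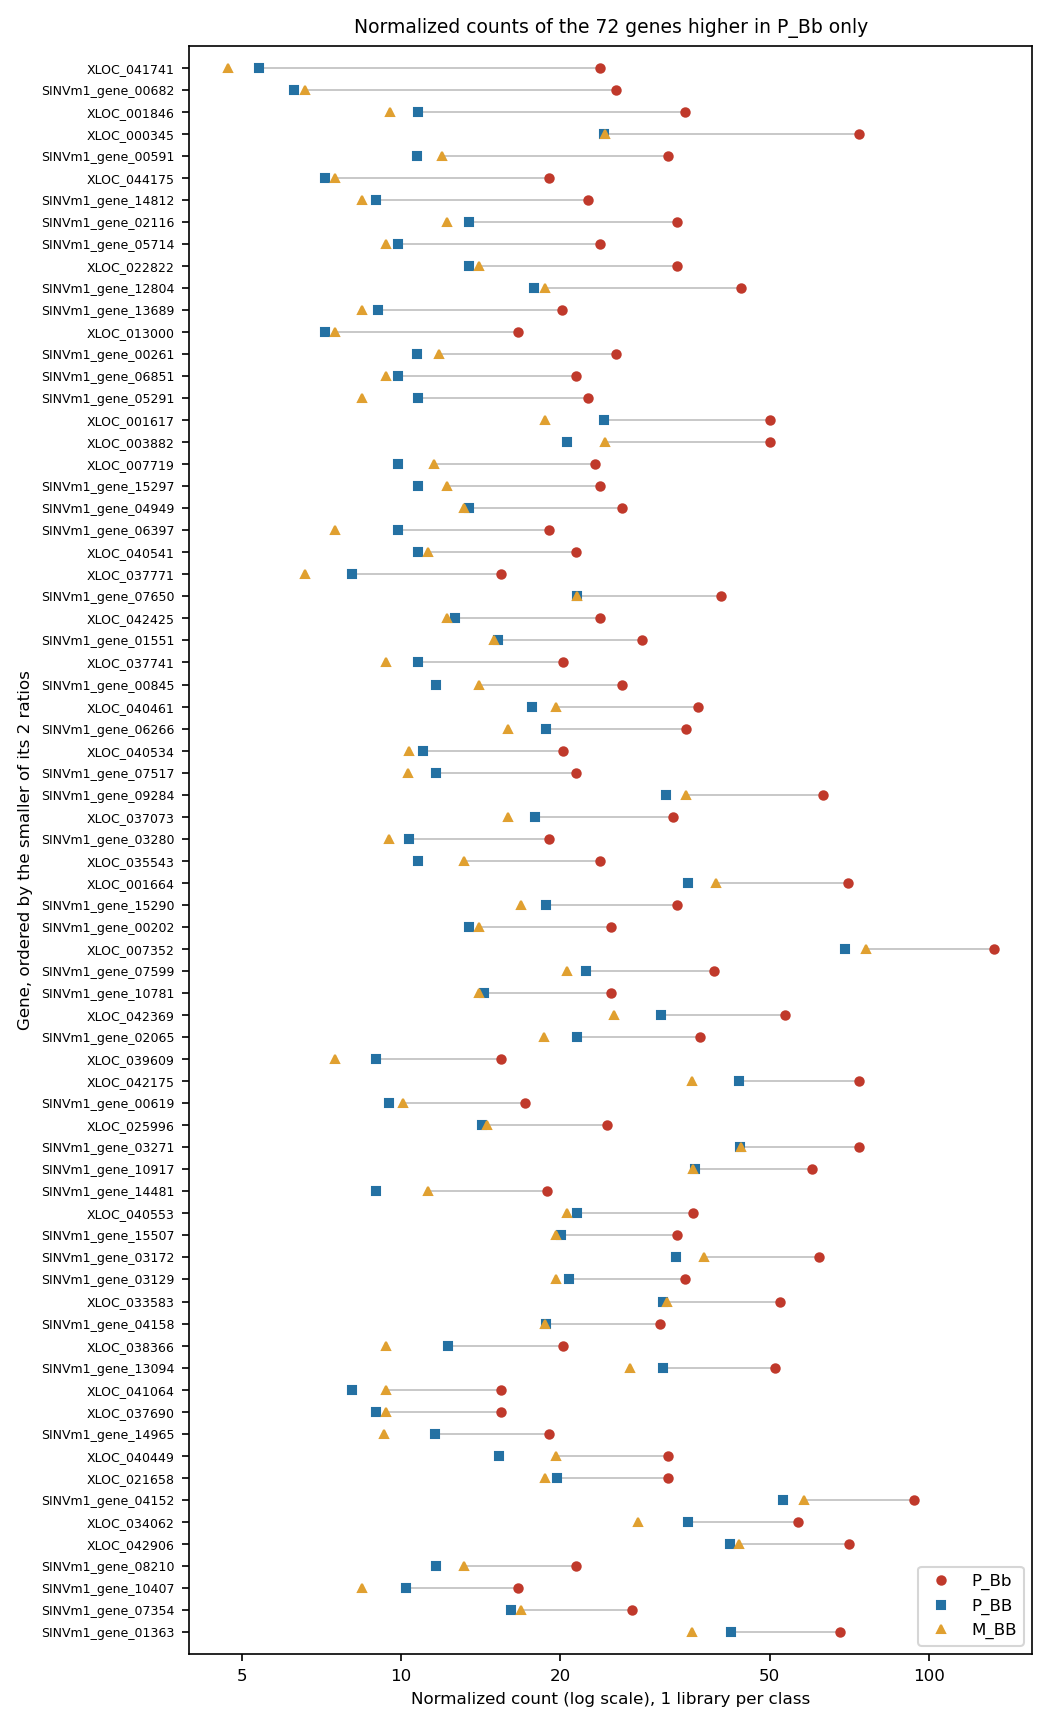
Normalized count (log scale) of each of the 72 members in P_Bb (circles), P_BB (squares) and M_BB (triangles), 1 library per class, with genes ordered by the smaller of their P_Bb ratios to the SB/SB libraries. The circle lies to the right of both other symbols for every gene because the rule required it, and the highest circle, at 133, belongs to XLOC_007352.

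The rule used the contrasts of P_Bb with each SB/SB library, so the following shares describe the choice and are not read further. The members were 0.886% of the genes in range. P_Bb was at least 1.6-fold over P_BB in 348 genes (4.28%) and at least 1.6-fold over M_BB in 563 genes (6.93%). It was at least 1.6-fold over both in 108 genes. The SB/SB libraries were within 1.3-fold of each other in 72 of these, which are the members, and further apart in 36. Among those 36 genes, P_BB was above M_BB in 27 and below it in 9. Within the members the SB/SB values differed by 1.0-fold to 1.29-fold, and P_BB was above M_BB in 39 of them (54.2%, against 51.9% of all genes in range).

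**Figure D2:**
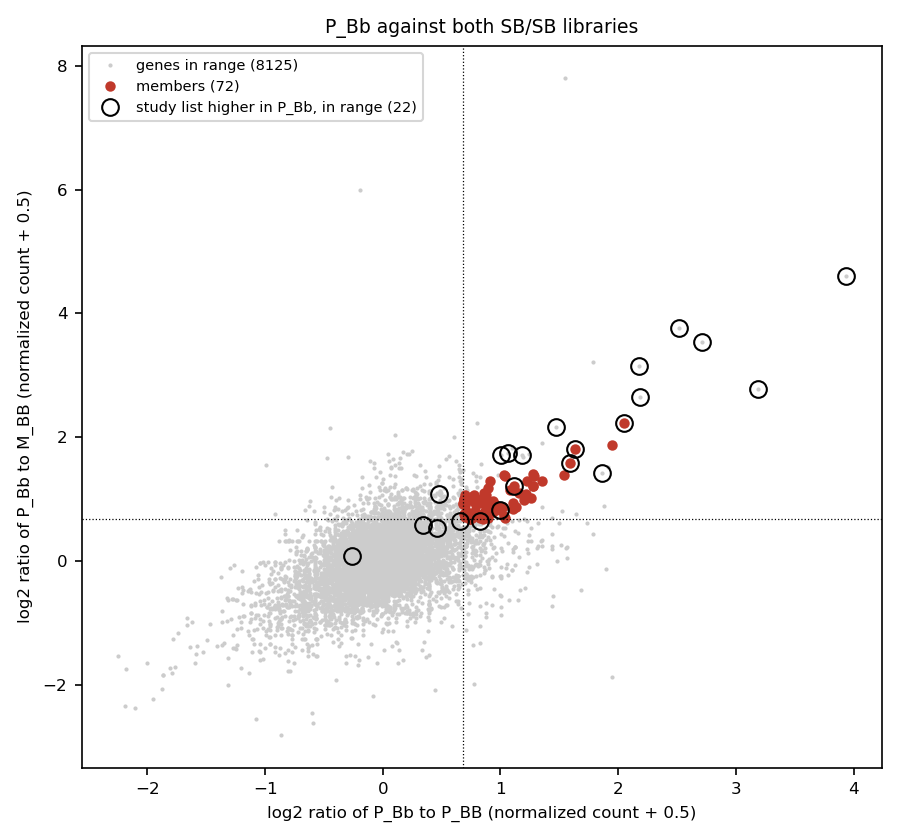
Log2 ratio of P_Bb to P_BB (horizontal axis) against log2 ratio of P_Bb to M_BB (vertical axis), both of normalized counts with 0.5 added, for the 8125 genes in range (grey), the 72 members (red) and the 22 genes in range on the list of genes higher in P_Bb drawn from the study (open circles). Dotted lines mark 1.6-fold, the members fill the corner beyond both lines near the diagonal, and 5 of the open circles lie on members.

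The members that stood furthest from both SB/SB libraries were mostly genes of low count. XLOC_041741, annotated as a BEN domain-containing protein 6-like gene, had normalized counts of 23.8 in P_Bb against 5.38 in P_BB and 4.69 in M_BB, from 20, 6 and 5 expected counts. BEN domains occur in proteins that bind DNA or chromatin. The ratio of P_Bb to the pooled SB/SB libraries was 4.72 (exact conditional 95% interval 2.16 to 10.9), and XLOC_041741 was the single member that was over 4-fold above both. SINVm1_gene_00682, which the sources used here do not name, had normalized counts of 25.5, 6.26 and 6.56 in P_Bb, P_BB and M_BB and a pooled ratio of 3.89 (1.89 to 8.28).

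XLOC_001846 followed with normalized counts of 34.5 in P_Bb against 10.8 in P_BB and 9.52 in M_BB and a pooled ratio of 3.42 (1.90 to 6.25). It is annotated as L2-1, a transposable element, which is a DNA segment that can copy or move itself within a genome. XLOC_000345, an uncharacterized protein gene, had 73.8, 24.2 and 24.4 normalized counts in P_Bb, P_BB and M_BB, and P_Bb stood 3.04-fold (2.07 to 4.47) over the SB/SB pool. The SB/SB libraries were nearly equal on this scale but not in transcripts per length. There the deposited TPM (transcripts scaled by effective length to a common total) was 86.3 in P_Bb, with 52.9 in P_BB and 13.5 in M_BB. The tables list 2 transcripts for XLOC_000345, and the part of their lengths in that gap was not tested. Of the 5 members furthest from both SB/SB libraries, XLOC_000345 had the highest count and the narrowest interval. SINVm1_gene_00591, not named in the sources, had 32.1 normalized counts in P_Bb against 10.7 in P_BB and 11.9 in M_BB and a pooled ratio of 2.80 (1.57 to 5.04).

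The next members had pooled ratios between 2.32 and 2.60. XLOC_044175 had normalized counts of 19.1 in P_Bb against 7.17 in P_BB and 7.50 in M_BB, with a pooled ratio of 2.60 (1.22 to 5.54). SINVm1_gene_14812 had 22.6, 8.96 and 8.44, with a ratio of 2.60 (1.3 to 5.18). SINVm1_gene_02116 had 33.3, 13.4 and 12.2 and the same point ratio, with a narrower interval of 1.48 to 4.55 because its counts were higher. None of these genes carries a name in the sources used here. SINVm1_gene_05714 had normalized counts of 23.8, 9.86 and 9.38 in P_Bb, P_BB and M_BB and a pooled ratio of 2.47 (1.27 to 4.79). XLOC_022822 had 33.3, 13.4 and 14.1, with a ratio of 2.42 (1.39 to 4.20). SINVm1_gene_12804 had 44.0, 17.9 and 18.8, with a ratio of 2.40 (1.49 to 3.85). SINVm1_gene_13689, annotated as an uncharacterized protein, had 20.1 normalized counts in P_Bb against 9.02 in P_BB and 8.44 in M_BB, a ratio of 2.32, and the lower end of its interval, 1.13 to 4.72, was the closest to 1 of these 12. In all 12 of these leading members the interval of the pooled ratio lay above 1.

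The depth separated the members unequally. The interval of the pooled ratio lay above 1 in 51 of the 72 members (679 of all genes in range, 8.36%) and held 1 in the other 21. The intervals of both single ratios, to P_BB and to M_BB, lay above 1 in 31 members (159 genes in range, 1.96%). The strictest view compares the Poisson intervals of the single libraries, and the P_Bb interval lay wholly above both SB/SB intervals in 10 members (49 genes in range, 0.603%). Since the members were chosen on these counts, the intervals show how finely each value was measured and give no support for a difference between genotypes.

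**Figure D3:**
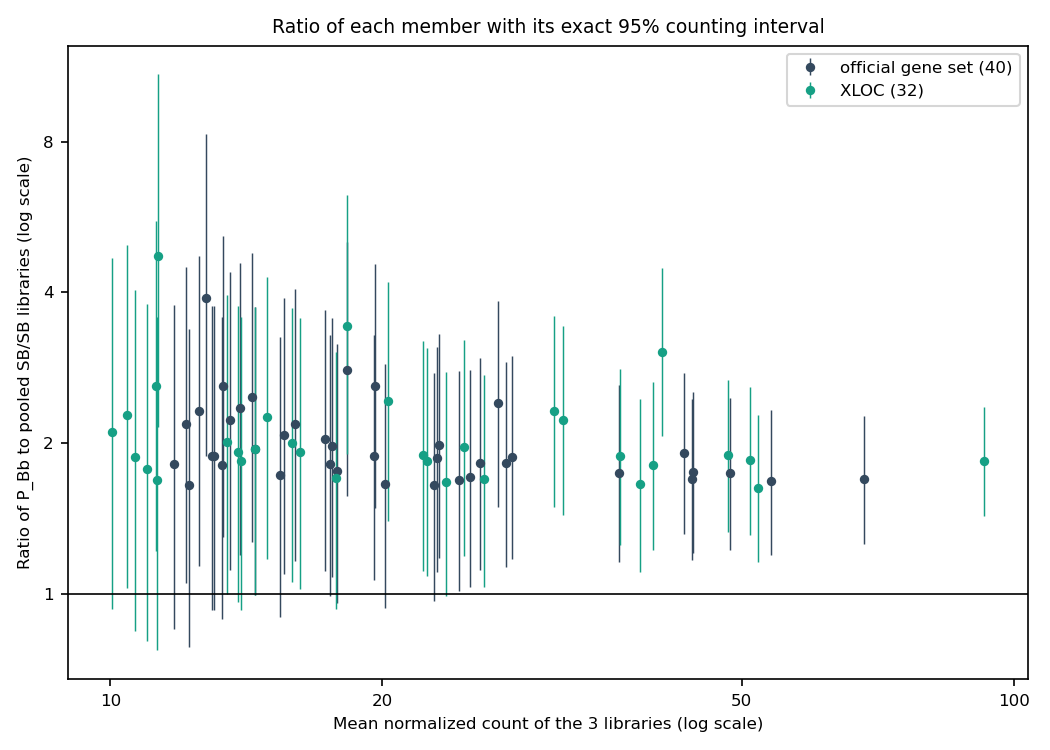
Ratio of P_Bb to the pooled SB/SB libraries (vertical, log scale) against mean normalized count (horizontal, log scale) for the 72 members, coloured by ID class, with the exact 95% counting interval as a bar. Bars are widest at the left, where counts are lowest, and 21 of the 72 bars reach the line at 1.

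The 10 members with separate intervals included 6 of the leading ones, namely XLOC_041741, SINVm1_gene_00682, XLOC_001846, XLOC_000345, SINVm1_gene_00591 and SINVm1_gene_12804. The other 4 were XLOC genes, and XLOC_001617 and XLOC_003882 are named here after their values were seen. XLOC_001617 had normalized counts of 50.0 in P_Bb against 24.2 in P_BB and 18.8 in M_BB and a pooled ratio of 2.32 (1.49 to 3.59). XLOC_003882 had 50.0, 20.6 and 24.4, with a ratio of 2.22 (1.44 to 3.43). XLOC_001664 had 70.2 in P_Bb against 35.0 in P_BB and 39.6 in M_BB, with a ratio of 1.89 (1.33 to 2.68). It is annotated as a Pol protein, the polyprotein with which retrotransposons copy themselves.

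Of all members, XLOC_007352 was read from the most counts. It had normalized counts of 133 in P_Bb against 69.3 in P_BB and 76.1 in M_BB, and its pooled ratio of 1.84 had the narrowest interval of any of the 72, from 1.43 to 2.36. Another 4 members averaged 50 or more normalized counts, and the P_Bb interval overlapped an SB/SB interval in each of them. SINVm1_gene_04152 had 94.0, 52.9 and 58.1 normalized counts in P_Bb, P_BB and M_BB, and a pooled ratio of 1.69 (1.26 to 2.27). XLOC_042175 had 73.8, 43.7 and 35.6, with a ratio of 1.85 (1.31 to 2.59). SINVm1_gene_03271 also had 73.8 in P_Bb, with 43.9 in P_BB and 44.1 in M_BB and a ratio of 1.68 (1.20 to 2.33). XLOC_042906 had 70.6, 42.0 and 43.7, with a ratio of 1.63 (1.16 to 2.28). The pooled ratio was under 2 in all 5 of these better-covered genes, while XLOC_042175 was 2.05-fold over M_BB alone, and none of the 5 carries a name in the sources used here.

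Levels of different genes were compared per transcript length, as TPM. The median TPM of the members in P_Bb was 31.6. The highest belonged to genes with very short models. SINVm1_gene_10781 had 1428 TPM in P_Bb against 715 in P_BB and 830 in M_BB, but its model is 216 bases long with an effective length of 17.25 bases, and the P_Bb value rested on 21 expected counts. SINVm1_gene_10917 had 1015, 557 and 623 TPM with a model of 294 bases, from 50.5 expected counts in P_Bb. SINVm1_gene_00845, also of 294 bases, had 442, 180 and 244 TPM. TPM divides by the effective length, so a short model raises it. SINVm1_gene_09284, of 702 bases, had 141 TPM in P_Bb against 67.6 in P_BB and 81.6 in M_BB. SINVm1_gene_13094, of 654 bases, had 128, 74.7 and 71.6 TPM. P_Bb was the highest library on the TPM scale for each of these genes. TPM rests on the same counts by which the members were chosen, so this direction adds no evidence.

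Membership was not sharply bounded. The smaller of a member's ratios to P_BB and to M_BB had a median of 1.79 and ran from 1.6 to 4.13. It lay between 1.6 and 1.7 in 28 of the 72, was at least 2 in 18 and at least 3 in 3. Just outside the rule, 41 genes met its other limits with a smaller ratio between 1.5 and 1.6. The members nearest to the limit were SINVm1_gene_01363, with normalized counts of 67.8 in P_Bb against 42.1 in P_BB and 35.6 in M_BB, SINVm1_gene_07354, with 27.4, 16.1 and 16.9, and SINVm1_gene_10407, with 16.7, 10.2 and 8.43. The nearest genes outside it were SINVm1_gene_13990, with 34.5, 21.5 and 18.8, SINVm1_gene_06686, with 27.4, 17.0 and 16.9, and SINVm1_gene_04430, with 16.7, 9.86 and 10.3. The smaller ratio of these 6 genes ran from 1.586 to 1.604, and the step across the limit is within the counting error of each.

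The 44 members not named above had normalized counts of 15.5 to 61.9 in P_Bb (median 24.2), 7.17 to 35.0 in P_BB (median 12.5) and 6.56 to 37.5 in M_BB (median 13.1). Their pooled ratios ran from 1.65 to 2.35 with a median of 1.88, and the interval lay above 1 in 26 of them. They comprised 21 XLOC genes and 23 genes of the official gene set.

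Membership depended on how the libraries were scaled. With median-of-ratios size factors 56 genes met the rule and all 56 were members, with TMM size factors 54 genes met it and 53 were members, and with total counts 60 met it and 40 were members. Scaling by total counts moved the median log2 ratio of P_Bb to M_BB over all genes in range from 0.04 to -0.16. In all, 34 members met the rule under all 4 scalings, and 18 met it under at most 1 scaling other than the main one. Of the first 12 members 11 met the rule under all 4 and SINVm1_gene_00591 under 3. The first 12 were ranked by the same counts, so this gives no separate support for them. Among the 5 members with a mean of at least 50, XLOC_042175 met it under all 4, XLOC_007352 and SINVm1_gene_03271 under 3, and SINVm1_gene_04152 and XLOC_042906 under the main scaling only. SINVm1_gene_07354, at the limit, was also a member under the main scaling only, while SINVm1_gene_13094, SINVm1_gene_10407 and SINVm1_gene_01363 met the rule under 2 of the 4.

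A list of 33 genes higher in P_Bb was taken from the study's text, which drew on other libraries made at least in part from RNA of the same workers, so it gives no independent evidence for the direction seen here. SINVm1_gene_00166 and XLOC_023347, which the study called different between all classes and assigned mainly to genotype, were merged into the list here. Of the 33, 22 were in range in these libraries and 11 averaged under 10 normalized counts. P_Bb was above both SB/SB libraries in 21 of the 22. The same share over all genes in range was not computed, so the 21 are not read further. The exception was SINVm1_gene_13984, with normalized counts of 17.8 in P_Bb against 21.5 in P_BB and 16.9 in M_BB. The median log2 ratio over the 22 genes was 1.33 to P_BB and 1.71 to M_BB, beside 0.01 and 0.04 over all genes in range. Members among the 22 numbered 5 (22.7%, against 0.886% of all genes in range): XLOC_041741, XLOC_001846, XLOC_000345, SINVm1_gene_13689 and XLOC_001664.

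The other 17 listed genes in range missed the rule for different reasons. The SB/SB libraries were more than 1.3-fold apart in 9, the ratio was under 1.6 in 5 and 3 were left out by name. Those 3 also missed other limits of the rule. The 6 with the highest mean are given as examples. XLOC_036229 had 204 normalized counts in P_Bb and 129 in both P_BB and M_BB, a ratio of 1.57. XLOC_023347 had 259 in P_Bb against 93.2 in P_BB and 57.2 in M_BB, so that the SB/SB libraries were further apart than the rule allows. XLOC_044145, with 159, 27.4 and 11.3, XLOC_001337, with 76.1, 20.6 and 28.2, and SINVm1_gene_05326, with 65.4, 32.3 and 19.7, were also left out because their SB/SB libraries differed. SINVm1_gene_05176 had 74.9, 42.1 and 47.8, with a smaller ratio of 1.56.

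By annotation, the study's list held 8 transposable elements, of which 6 were in range and 2 were members. Another 3 of those 6 were left out by name, and none of the 3 met the other limits. It held 12 uncharacterized protein genes, with 10 in range and 2 members, and 2 virus protein genes, with 1 in range and 0 members. Of 11 genes with other annotations 5 were in range and 1 was a member. Of the 6 genes that the study placed in the supergene, 3 were in range and 0 were members. Members were 22.7% of the listed genes in range and 0.886% of all genes in range. The sources used here give no location for the 66 members outside the study's lists. The count therefore does not tell whether the module holds supergene genes.

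In the study's other lists, 0 members occurred among the 5 genes named as lower in P_Bb and 0 among the 21 named as higher in M_BB. Members were 0.886% of all genes in range, and 2 of the 5 genes were left out by name. The rule also required P_Bb to be high, so these zeros are not read further. Of the 22 genes named as lower in M_BB, 1 was a member, SINVm1_gene_01363, annotated as COP9 signalosome complex subunit 2. The COP9 signalosome is a protein complex that regulates ubiquitin ligases of the cullin family. The gene was lowest in M_BB in these libraries, at 35.6, with P_BB at 42.1 and P_Bb at 67.8, and its pooled ratio was 1.74 (1.22 to 2.46). The remaining 66 members were in none of the study's lists. They included 6 of the 10 members with separate intervals.

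The rule did not use the class of the gene ID. XLOC IDs mark transcripts that the study added from antennal reads to the official gene set. They were carried by 32 of 72 members, or 44.4% (Wilson 95% interval 33.5 to 55.9), and by 2185 of 8125 genes in range, or 26.9% (25.9 to 27.9). Put the other way, 1.46% of the XLOC genes and 0.673% of the official genes in range were members. The share was higher at each level of expression: 16 of 39 members with a mean of 10 to 20 were XLOC genes (41.0%, against 24.8% of genes at that level), as were 13 of 28 with a mean of 20 to 50 (46.4% against 25.8%) and 3 of 5 with a mean of at least 50 (60.0% against 28.4%). The XLOC and official members had similar smaller log2 ratios, with medians of 0.84 and 0.83.

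A raised XLOC share was not particular to P_Bb. The same limits, applied to each library and direction, gave 150 genes lower in P_Bb only (1.85% of genes in range, 27.3% of them XLOC), 50 higher in P_BB only (0.615%, 38.0% XLOC) and 94 lower in P_BB only (1.16%, 14.9% XLOC). They gave 130 genes higher in M_BB only (1.6%, 16.2% XLOC) and 206 lower in M_BB only (2.54%, 48.1% XLOC). Genes lower in M_BB only had the highest XLOC share, above that of the members. Of the 8125 genes in range, 1610 averaged 50 to 100 normalized counts and 2506 averaged 100 to 1500. An average of 50 or more was found in 5 of the 72 members and in 68 of the 206 genes lower in M_BB only. With 1 library per class, differences between these counts carry no test.

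**Figure D4:**
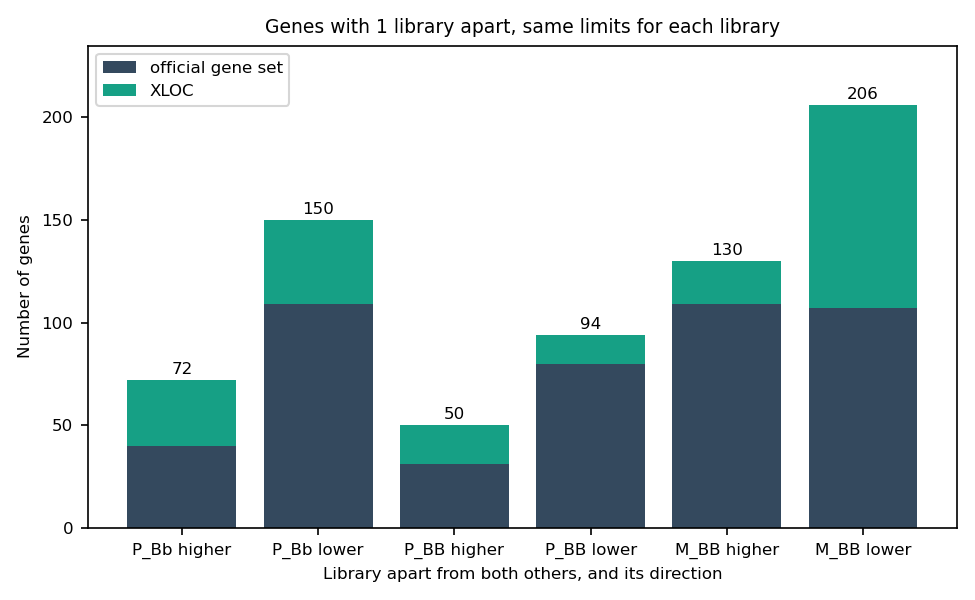
Number of genes (vertical axis) in which 1 library stood at least 1.6-fold apart from both others while those were within 1.3-fold of each other, for each library and direction (horizontal axis), split into official gene set (dark) and XLOC (green). The bar of the 72 members is lower than those for genes lower in P_Bb (150), higher in M_BB (130) and lower in M_BB (206), and higher than that for P_BB higher (50).

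Members were concentrated at the low end of the range. They made up 39 of 1652 genes (2.36%) with a mean normalized count of 10 to 20, 28 of 2357 (1.19%) from 20 to 50, 5 of 1610 (0.311%) from 50 to 100 and 0 of 2506 from 100 to 1500. The median of the mean normalized count was 18.3 over the members and 51.1 over the genes in range. Counting error is wider at lower counts, and its part in the membership was not tested.

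The members also had shorter models. Their median length was 1284.5 bases (quartiles 1039 and 1933.5), against 1803 (1104 and 3060) over the genes in range. Models of the official gene set are coding lengths, since 100% of the official members and 99.1% of the official genes in range have a length that is a multiple of 3. Among these the median coding length was 1197 bases in members and 1626 in genes in range. Among XLOC genes the medians were 1430 and 2399 bases. Whether the shorter models go with the lower counts of the members was not tested.

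Genes with some ambiguous reads, which match more than 1 gene, made up about the same share of members as of all genes in range. The share of reads that were ambiguous was not compared. RSEM gives the posterior SD of each count, which is 0 when every read was placed without doubt. It exceeded 20% of the posterior mean in 0 of the 72 members and in 47 genes in range (0.578%). It was above 0 in some library for 45 members, or 62.5% (51.0 to 72.8), and for 62.0% of genes in range. The remaining 27 members had a posterior SD of 0 in every library. Posterior mean counts differed from expected counts by at most 4.40% for any member, and the same 72 genes met the rule in them. All but 3 members had a single transcript in the tables. Members were spread through the gene numbering, with no official gene set members numbered 1 apart and a smallest gap of 6, although the sources used here do not say whether the numbers follow position.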

How the data were processed

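Antennal polyA RNA was pooled within each of the 3 worker classes, amplified (SMARTer stranded kit) and sequenced from both ends. Reads were mapped by the authors with Bowtie onto the official gene set joined with odorant receptor and added antennal transcripts. Both strands had equal probability, so sense and antisense reads were not told apart and genes that overlap are uncertain. Tool versions for these libraries are not given in the sources used here. The authors deposited expected counts from RSEM, posterior mean counts with their SD, model lengths and TPM, which RSEM scales by effective length within each library. A deposited table of the authors' EBSeq comparison, which holds posterior probabilities and fold changes, was not used, nor were the deposited transcript models. The IDs were not paired with symbols, and 0 of them occurred in the reference gene table.

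Expected counts were divided by the 75th percentile over genes with a count in any library, scaled to a geometric mean of 1. Ratios to single libraries were taken after adding 0.5, which shrinks the change of low genes. Pooled ratios and all intervals of ratios had nothing added. Members were chosen by large ratios in the same counts, and how far this overstates their change was not tested. Pooled ratios carry exact conditional (Clopper-Pearson) 95% intervals, single libraries exact Poisson intervals and shares of counts Wilson intervals, all on rounded counts. Reads carried no molecular identifiers, so these cover counting error only. Shares of genes carry Wilson intervals and medians over members order-statistic intervals, both with genes as units. Alternatives were size factors from DESeq2 1.42.0 (median of ratios) and edgeR 4.0.16 (TMM), both on rounded counts in R 4.3.3, total counts, posterior mean counts, other minimum counts, pseudocounts and limits. Other steps used Python 3.11.15 with pandas 2.3.3 and scipy 1.17.1. With the 1.3-fold limit taken without the pseudocount, 70 genes were members.

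Members named are the 12 with the largest smaller ratio, those averaging 50 or more normalized counts, the 5 with the highest mean TPM, those in the study's lists, and the 3 on each side of the 1.6-fold limit. Study genes outside the members were named in order of mean normalized count. The members and lists were chosen with earlier results of these data known.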

Additional observations from a re-analysis of the deposited data

How the results depend on the processing

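The number of genes meeting the rule was 72, and between 49 and 91 with the other scalings, posterior mean counts, a pseudocount of 5 or SB/SB libraries within 1.6-fold. It rose to 250 at a minimum mean count of 1 and fell to 5 at a minimum of 50 and to 18 at a 2-fold limit. At a pseudocount of 5, 39 of the 49 genes were members. With total counts 32 members were lost, 25 of them with a ratio to M_BB under the limit and 13 with SB/SB libraries further apart, some with both. The median log2 ratio to M_BB moved from 0.94 to 0.89 with TMM and to 0.75 with total counts. A pseudocount of 5 moved the medians to 0.71 against P_BB and 0.77 against M_BB. With 99% intervals 28 members, in place of 51, had a pooled interval above 1. The share of members with ambiguous reads was 0% at the SD limit of 20% and 62.5% at any SD above 0. The XLOC share was 60.0% at a minimum of 50, over 5 genes, and the median effective length in P_Bb was 993 bases. Each number rests on 1 library per class, and the depth leaves 21 of the 72 members with a pooled interval that holds 1. A rescaling shifts all genes alike and the rule fixed the direction of the members, so their direction could not show stability. No paired analysis was possible because each class has a single library.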
